A study of Homo sapiens with 12 samples.

Results

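Glypicans and syndecans are the main cell-surface core proteins that carry heparan sulfate, and the human genome names 6 glypican genes (GPC1 to GPC6) and 4 syndecan genes (SDC1 to SDC4). All 10 were taken from the deposited count table by gene name, out of 60583 gene names, and all 10 had enough counts to be tested. The rule itself was the gene name, but the families were selected on earlier results from these same counts (their levels by scaffold and replicate number), so the values of the members, fits included, stand as a description.

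Heparan sulfate is a long sulfated sugar chain that is built on a core protein in the Golgi and binds growth factors, morphogens and matrix proteins at the cell surface. Glypicans hold their chains close to the membrane through a lipid (GPI) anchor, and are known as modulators of FGF, Wnt, Hedgehog and BMP signals. Syndecans span the membrane, and their short cytoplasmic tails bind PDZ proteins and connect to the actin cytoskeleton. In heart, syndecan-4 is known as a component of focal adhesions and Z-discs, and in mice it has been tied to calcineurin and NFAT signalling under mechanical load.

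The cells were cardiomyocytes derived from RUES2, 1 established human embryonic stem cell line, of wild-type genotype. The PEDOT group was kept on electrospun 9.75% PEDOT:PSS/PVA, a conductive scaffold, and the PVA group on electrospun 8% PVA (polyvinyl alcohol), which does not conduct. Cells of both groups were put on their scaffold at day 50, stayed there for 3 days in RPMI with B27 and insulin, and were detached with trypsin before ribodepleted total RNA was sequenced. Each scaffold had 3 biological replicates, numbered 1 to 3, with 2 technical libraries each.

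On hg38, the deposited table puts GPC3 (chrX:133535745-133985594) and GPC4 (chrX:133300103-133415489) side by side on the minus strand of chromosome X. It puts GPC5 (chr13:91398621-92873682) and GPC6 (chr13:93226807-94408020) side by side on the plus strand of chromosome 13. GPC1 lies at chr2:240435663-240468076, GPC2 at chr7:100169606-100177381, SDC1 at chr2:20200797-20225433, SDC2 at chr8:96493813-96611790, SDC3 at chr1:30869466-30908758 and SDC4 at chr20:45325288-45348424. A row for SDC4P, a processed copy of SDC4, held 2 counts over all libraries.

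Library totals were 19.1 to 31.0 M counts. Technical libraries of 1 replicate were further apart than counting error allows (mean chi-square per gene 5.86 to 14.5), so they are not 1 library deposited again, and they were added to give 6 sums. The labelled cell type was borne out by its markers: all 10 cardiomyocyte markers were tested, and their summed level was 64573 to 85760 CPM (counts scaled to library size) in the PEDOT sums and 55945 to 75985 CPM in the PVA sums. Markers of other cells were present as well. The 10 fibroblast markers summed to 846 to 6765 CPM in the PEDOT sums and 820 to 3702 CPM in the PVA sums, with DPT under 0.5 CPM in every sum. The 10 smooth muscle and pericyte markers summed to 1234 to 2277 CPM in the PEDOT sums and 1532 to 2587 CPM in the PVA sums. The 10 epicardial and mesothelial markers summed to 837 to 1301 CPM in the PEDOT sums and 893 to 1330 CPM in the PVA sums. Of these, UPK3B and MSLN were under 0.5 CPM in every sum. These are bulk samples, so fewer cells of a type and less RNA per cell cannot be told apart.

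RefSeq promoter windows of GRCh38.p14, from 250 bases before to 50 bases after the start, were found for 8 of the 10 genes. Those of GPC4 and GPC6 are shown because both genes were lower together in replicate number 2, and that of GPC1 because it moved the other way. Capitals mark matches, on either strand, to a GC box (GGGCGG or CCGCCC) or a TATA box (TATAAA or TTTATA). The windows are chrX:133415440-133415739 on the minus strand for GPC4, chr13:93226557-93226856 on the plus strand for GPC6 and chr2:240435413-240435712 on the plus strand for GPC1, all printed 5′ to 3′ along the gene.
GPC4: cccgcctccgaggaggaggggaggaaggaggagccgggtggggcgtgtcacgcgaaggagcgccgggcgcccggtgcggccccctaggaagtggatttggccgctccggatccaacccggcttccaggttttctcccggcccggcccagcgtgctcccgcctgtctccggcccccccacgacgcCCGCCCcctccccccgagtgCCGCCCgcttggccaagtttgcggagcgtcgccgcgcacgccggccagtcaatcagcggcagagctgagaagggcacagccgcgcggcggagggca
GPC6: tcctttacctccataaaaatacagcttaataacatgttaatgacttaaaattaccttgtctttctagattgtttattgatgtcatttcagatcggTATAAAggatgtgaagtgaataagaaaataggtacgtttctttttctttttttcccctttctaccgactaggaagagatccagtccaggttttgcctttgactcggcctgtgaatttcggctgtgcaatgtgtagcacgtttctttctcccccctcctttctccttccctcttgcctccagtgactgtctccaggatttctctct
GPC1: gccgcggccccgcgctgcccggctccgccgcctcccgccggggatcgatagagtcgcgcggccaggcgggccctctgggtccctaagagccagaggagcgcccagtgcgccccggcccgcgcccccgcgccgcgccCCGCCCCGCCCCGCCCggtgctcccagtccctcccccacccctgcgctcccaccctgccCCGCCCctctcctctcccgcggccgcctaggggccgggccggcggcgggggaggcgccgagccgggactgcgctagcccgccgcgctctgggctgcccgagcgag

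The GPC4 and GPC6 windows were unlike in composition. The GPC4 window was 74.7% G and C with 37 CpG dinucleotides, and the GPC6 window was 40.0% with 6, against medians of 58.67% and 14 over 35116 RefSeq promoters of the same length. GPC4 held 2 GC boxes and GPC6 none, while GPC1, at 83.3% with 45 CpG dinucleotides, held 4. A GC box is present in 45.0% of all promoters. GPC6 held 1 TATA box, which 11.5% of all promoters hold, and GPC4 and GPC1 held none. The CCAAT box (CCAAT or ATTGG), present in 34.6% of all promoters, was in none of these 3 windows. Each match is a run of letters and not a shown binding site.

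Levels between genes were compared per length, as CPM per kilobase of exon. GPC1, a glypican known as a co-receptor for FGF2, had the highest mean over the 6 sums, at 34.5 CPM per kilobase. SDC4 followed at 28.5, SDC3 at 20.9 and SDC2 at 18.2 CPM per kilobase. GPC4 at 8.09, GPC6 at 6.10 and GPC3 at 5.61 CPM per kilobase formed a middle group. SDC1, known from epithelia and plasma cells, stood at 0.773, GPC2, known from neural progenitors, at 0.663 and GPC5 at 0.142 CPM per kilobase. Among neighbours in this order, the ranges over the 6 sums were separate between SDC4 and SDC3, between GPC3 and SDC1 and between GPC2 and GPC5. The other neighbours overlapped, GPC1 and SDC4 among them. GPC5 rested on 3 to 21 counts per library, GPC2 on 37 to 92 and SDC1 on 43 to 114.

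**Figure D1:**
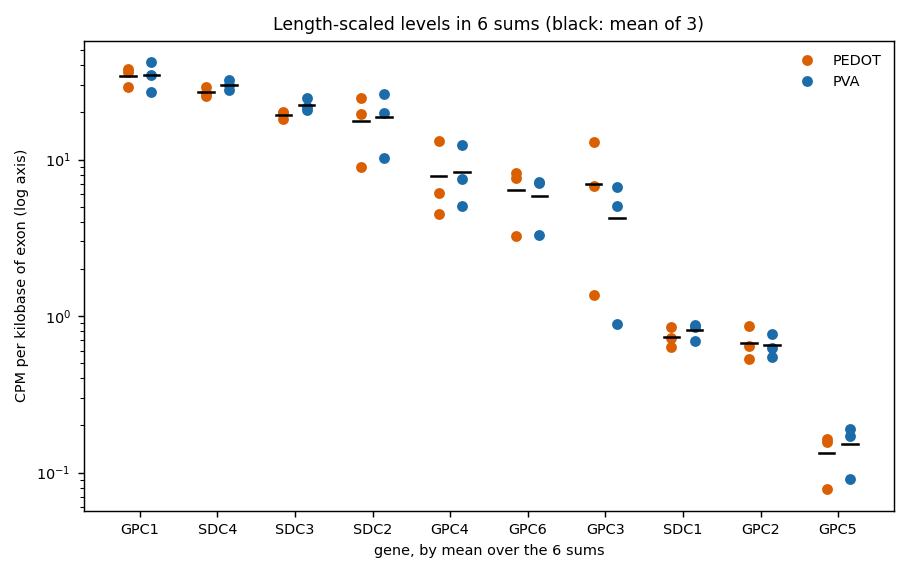
Length-scaled level of each gene (CPM per kilobase of exon, log axis) in the 3 PEDOT sums (orange, left) and the 3 PVA sums (blue, right), with black bars for the mean of 3. The genes run from GPC1 at a mean of 34.5 to GPC5 at 0.142 CPM per kilobase.

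Within the glypicans, GPC1 had the highest share of the length-scaled level in each sum, from 45.3% in PEDOT sum 1 and 49.95% in PVA sum 1 to 79.4% in PEDOT sum 2 and 80.7% in PVA sum 2. Its mean share was 62.5 ± 17.03% in PEDOT sums and 64.5 ± 15.5% in PVA sums (SD, n = 3 each). GPC3 took 11.6 ± 8.74% in PEDOT sums and 7.78 ± 5.51% in PVA sums (SD, n = 3 each; two-sided exact permutation test, p = 0.5). Within the syndecans, SDC4 took 42.1 ± 4.94% in PEDOT sums and 42.0 ± 4.41% in PVA sums, and SDC3 took 30.3 ± 3.59% in PEDOT sums and 31.5 ± 3.56% in PVA sums (SD, n = 3 each). Over the 10 shares compared, every Benjamini-Hochberg adjusted exact p was 1.0, and 0.1 is the smallest unadjusted p that 3 sums against 3 can give. That test does not use the replicate numbers. Within same-numbered pairs, the GPC3 share was higher on PEDOT in 3 of 3, and the shares of GPC1, GPC4, GPC5 and SDC3 were lower on PEDOT in 3 of 3. Shares within a family add up to the whole, so a higher share of a gene lowers those of the others. By level, GPC1 was higher on PEDOT in 2 of 3 pairs, GPC4 in 1, and GPC5 and SDC3 in 0.

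The scaffold question was whether these genes differed between the PEDOT and PVA scaffolds. The scaffolds differ in polymer and percentage as well as in conduction, and these cannot be told apart here. With the scaffold as the only term, edgeR's quasi-likelihood test called 0 of 21298 genes at an adjusted p under 0.05, which is 0% in the background and 0 of the 10 members. DESeq2 and limma-voom, in the same unpaired design, also called 0. At an unadjusted p under 0.05 edgeR found 190 genes, or 0.892% of those tested. That share is smaller than a threshold of 0.05 would give with no difference at all, so 0 calls do not show that no gene differed. Same-numbered replicates on the scaffolds deviated together, so a paired fit, with a replicate block, is given beside it. The paired fit called 57 genes, or 0.268% of those tested, with 15 higher (0.0704%) and 42 lower (0.197%) on PEDOT. GPC3 was the 1 member called. In that fit, 3 of the 10 members (GPC3, SDC3 and SDC4) had an unadjusted p under 0.05, as did 1771 of 21298 genes.

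GPC3 encodes the glypican that binds Hedgehog ligands and is mutated in the Simpson-Golabi-Behmel overgrowth syndrome. Its level was 37.2, 3.90 and 19.3 CPM in PEDOT sums 1, 2 and 3, against 19.3, 2.57 and 14.5 CPM in PVA sums 1, 2 and 3. PEDOT was above PVA within each replicate number, while the groups as wholes overlapped, and replicate number 2 was low on both scaffolds. The PEDOT over PVA ratio was 1.93 in pair 1, 1.52 in pair 2 and 1.34 in pair 3. In background terms, 13.3% of tested genes were higher on PEDOT in all 3 pairs.

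As a log2 fold change, the unpaired GPC3 estimate was 0.74 ± 0.89 (SE; adjusted p by edgeR 1.0). The replicate block gave 0.67 ± 0.11 (SE; adjusted p by edgeR 0.0234), with PEDOT higher in 3 of 3 pairs. Single libraries of GPC3 were at 38.2 and 36.4 CPM in PEDOT replicate 1, 2.93 and 4.94 CPM in PEDOT replicate 2, and 18.7 and 19.9 CPM in PEDOT replicate 3. On PVA they were at 17.7 and 21.1 CPM in replicate 1, 2.39 and 2.70 CPM in replicate 2, and 11.2 and 18.2 CPM in replicate 3. The technical libraries thus overlapped between scaffolds in no pair, but the 2 libraries of PEDOT replicate 2 and of PVA replicate 3 lay far apart for one sample, up to 0.74 on the log2 scale.

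The paired GPC3 value was above 0 in all 24 alternative settings, from 0.48 to 0.82, and stayed past the threshold in 12 of them. Leaving out pair 1 gave 0.48 (edgeR adjusted p 0.0685) and leaving out pair 2 gave 0.69 (0.108). Leaving out a single library ended the call for PEDOT replicate 1 library 2 (edgeR adjusted p 0.0657) and library 3 (0.125), PEDOT replicate 2 library 2 (0.0708), PEDOT replicate 3 library 3 (0.0552), PVA replicate 1 library 3 (0.0651) and PVA replicate 3 library 1 (0.201). In the fit without the block, leaving out PEDOT replicate 1 brought the GPC3 log2 fold change to -0.06, and leaving out PVA replicate 1 brought it to 1.24.

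The summed level of the fibroblast markers was 6765, 846 and 3627 CPM in PEDOT sums 1, 2 and 3, against 3702, 820 and 3230 CPM in PVA sums 1, 2 and 3. The median log2 difference, PEDOT over PVA, of the 9 tested fibroblast markers was 0.86 in pair 1, 0.06 in pair 2 and 0.19 in pair 3, where GPC3 had 0.95, 0.60 and 0.42. In the paired edgeR fit 0 of these 9 markers was called and 5 had an unadjusted p under 0.05, beside 1771 of 21298 genes. DCN, a small matrix proteoglycan, was nearest at 0.85 ± 0.17 (SE; adjusted p by edgeR 0.0570). Of the interferon response list, 8 of 10 genes were called lower on PEDOT in the paired fit, with a list median of -1.48 (log2). Of the 10 smooth muscle and pericyte markers 2 were called lower there, RGS5 at -0.46 ± 0.064 and ACTA2 at -0.40 ± 0.071 (log2, SE). That list's median was -0.07, and 4 of its 10 estimates were above 0. Of the 10 cardiomyocyte markers 1 was called higher, the myosin heavy chain MYH7 at 0.95 ± 0.17 (SE). The cardiomyocyte list had a median of 0.19, with 8 of 10 estimates above 0. None of the 10 cell cycle genes was called, and all 10 estimates were below 0, with a list median of -0.40 in the paired fit, and of -1.24 in pair 1, -0.13 in pair 2 and 0.08 in pair 3. The part of any of these lists in the differences of GPC3 or the syndecans was not tested.

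**Figure D2:**
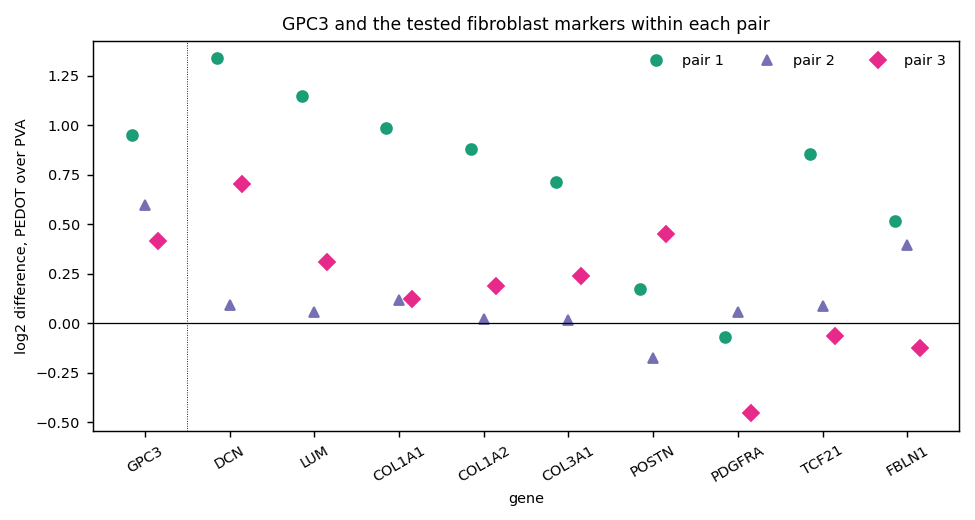
Log2 difference, PEDOT over PVA, of GPC3 (left of the dotted line) and the 9 tested fibroblast markers within replicate pairs 1, 2 and 3. GPC3 is at 0.95, 0.60 and 0.42 in pairs 1, 2 and 3, and the markers' median is at 0.86, 0.06 and 0.19.

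The 4 syndecans were all below 0 in the scaffold comparison, and none was called. Their median log2 fold change was -0.15 without the block and -0.14 with it, beside medians of -0.0060 and -0.0037 over all genes tested. SDC3, known as N-syndecan from neural tissue, had 143, 129 and 139 CPM in PEDOT sums 1, 2 and 3, against 153, 147 and 176 CPM in PVA sums 1, 2 and 3. The 3 PEDOT sums lay below the 3 PVA sums, as 2.31% of tested genes did, and SDC3 was the 1 member whose groups did not overlap. SDC3 came out at -0.21 ± 0.099 on the log2 scale in the unpaired fit (SE; adjusted p by edgeR 1.0) and at -0.21 ± 0.067 in the paired one (SE; adjusted p by edgeR 0.349).

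SDC4, the focal adhesion syndecan, had 75.5, 66.6 and 69.4 CPM in PEDOT sums 1, 2 and 3, against 77.7, 72.9 and 84.1 CPM in PVA sums 1, 2 and 3. PEDOT was lower in 3 of 3 pairs, but PEDOT sum 1 was above PVA sum 2. The paired estimate was -0.15 ± 0.067 (log2, SE; adjusted p by edgeR 0.579).

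SDC2, a syndecan of mesenchymal cells, had 101, 36.7 and 79.3 CPM in PEDOT sums 1, 2 and 3, against 107, 41.7 and 81.2 CPM in PVA sums 1, 2 and 3. PEDOT was lower within each pair, by log2 differences of -0.08, -0.18 and -0.03, yet the groups overlapped widely. In all, 4 members (SDC2, SDC3, SDC4 and GPC5) were lower on PEDOT in 3 of 3 pairs, beside 15.6% of tested genes. For GPC5, at 3 to 21 counts per library, the pairs differed by -0.13, -0.20 and -0.19. Its technical libraries differed by a median of 0.76 on the log2 scale. SDC1 was at 2.62, 2.28 and 3.06 CPM in PEDOT sums 1, 2 and 3, against 2.51, 3.18 and 3.10 CPM in PVA sums 1, 2 and 3, and the groups overlapped.

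The other glypicans had no call and no common direction between the scaffolds. GPC1 had 189, 248 and 236 CPM in PEDOT sums 1, 2 and 3, against 175, 274 and 226 CPM in PVA sums 1, 2 and 3, and the paired estimate was 0.01 ± 0.068 (log2, SE). GPC4, a Wnt and BMP modulator, had 64.7, 22.2 and 30.4 CPM in PEDOT sums 1, 2 and 3, against 61.0, 24.9 and 37.4 CPM in PVA sums 1, 2 and 3, with a paired estimate of -0.12 ± 0.080 (SE). GPC6, mutated in the skeletal disorder omodysplasia, had 58.3, 23.2 and 54.6 CPM in PEDOT sums 1, 2 and 3, against 51.1, 23.3 and 50.1 CPM in PVA sums 1, 2 and 3, with a paired estimate of 0.11 ± 0.069 (SE). For GPC1, GPC4 and GPC6 the scaffolds overlapped, and the range over the replicate numbers of a scaffold was wider than any difference between same-numbered sums. GPC2 had 2.04, 2.46 and 3.30 CPM in PEDOT sums 1, 2 and 3, against 2.10, 2.41 and 2.95 CPM in PVA sums 1, 2 and 3. GPC5, the rarest member, had 0.551, 0.582 and 0.277 CPM in PEDOT sums 1, 2 and 3, against 0.606, 0.674 and 0.322 CPM in PVA sums 1, 2 and 3. Both pairs of groups overlapped.

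**Figure D3:**
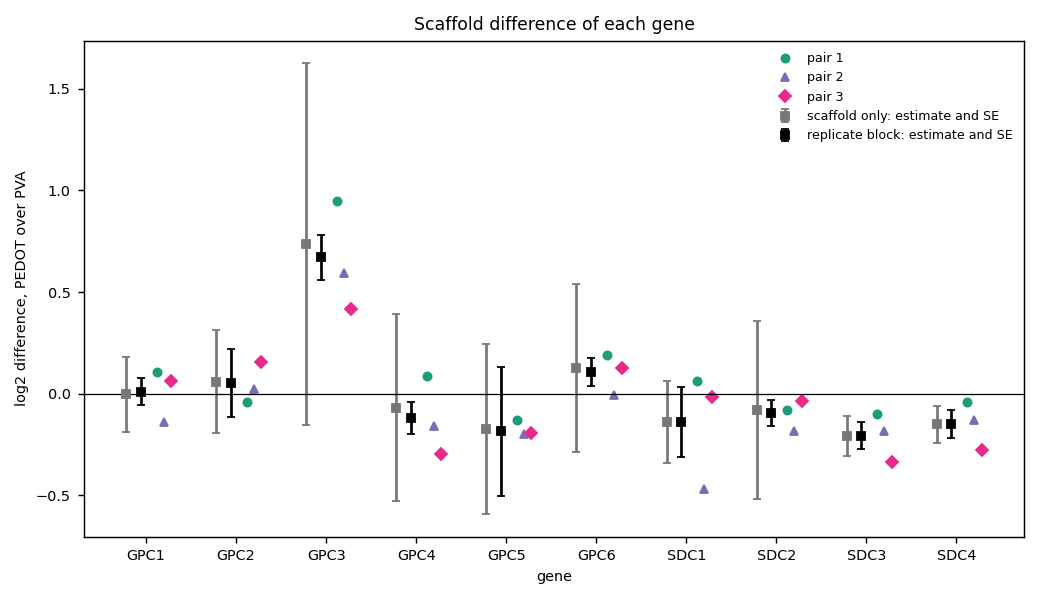
Log2 difference, PEDOT over PVA, of each gene from the fit with the scaffold only (grey squares, bars SE) and with the replicate block (black squares, bars SE), with pairs 1, 2 and 3 as coloured points. GPC3 stands at 0.74 and 0.67 in the fits, and the 4 syndecan estimates lie below 0.

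The replicate number took a larger share of the variance than the scaffold for 8 of the 10 members, all but SDC3 and SDC4. The medians over tested genes, given below, have the same order. The replicate number also has more levels than the scaffold, so a larger share alone does not show an effect. For SDC1 the replicate number took 39.2%, the scaffold 16.1% and neither 44.7%. SDC1 was not called for any difference between the numbers (edgeR adjusted p 0.586). With the scaffold held in the model, 5 of the 10 members were called in the test of any difference between the numbers (GPC1, GPC3, GPC4, GPC6 and SDC2), beside 31.8% of all tested genes. The share of the variance in log2 CPM over the 6 sums that followed the replicate number was 93.6% for GPC3, 97.1% for GPC4, 98.7% for GPC6, 99.1% for SDC2 and 94.2% for GPC1. The median over tested genes was 70.4%. For SDC3 the replicate number took 31.1% and the scaffold 56.5%, and for SDC4 the replicate number took 33.3% and the scaffold 46.8%, where the median scaffold share was 6.10%. What separates the replicate numbers, such as a differentiation or a day, is not stated in the labels.

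Replicate number 2 was the lowest number on both scaffolds for 6 members, GPC3, GPC4, GPC6, SDC2, SDC3 and SDC4. How many of all tested genes had this order was not counted. Of these members 4 were called in number 2 over number 1, and SDC3 (-0.11 ± 0.082, log2, SE) and SDC4 (-0.14 ± 0.082) were not. GPC3 averaged 3.23 CPM over the scaffolds in number 2, against 28.2 CPM in number 1, a log2 difference of -3.09 ± 0.15 (SE, edgeR adjusted p 2.2e-09). SDC2 averaged 39.2 CPM in number 2 and 104 CPM in number 1 (-1.41 ± 0.080 SE). GPC4 averaged 23.5 CPM in number 2 and 62.9 CPM in number 1 (-1.42 ± 0.099 SE), and GPC6 23.2 CPM in number 2 and 54.7 CPM in number 1 (-1.23 ± 0.087 SE). The edgeR adjusted p was 1.28e-08 for SDC2, 9.14e-08 for GPC4 and 1.03e-07 for GPC6. Both sums of number 2 lay below both sums of number 1 for each of these genes. GPC1 went the other way, at 261 CPM in number 2 and 182 CPM in number 1 (0.52 ± 0.084, edgeR adjusted p 0.000284). In this comparison 28.9% of tested genes were called, 15.7% lower and 13.3% higher. The other 5 members had values between -0.14 and 0.24, with none called. The calls for GPC3, SDC2, GPC4, GPC6 and GPC1 held in all 27 alternative settings, with GPC3 between -3.35 and -2.83.

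Number 3 stood apart in another way. Over number 1 it was lower for GPC4 (33.9 CPM in number 3 against 62.9 CPM in number 1, log2 difference -0.90 ± 0.097 SE), GPC3 (16.9 CPM in number 3 against 28.2 CPM in number 1, -0.69 ± 0.12) and SDC2 (80.3 CPM in number 3 against 104 CPM in number 1, -0.37 ± 0.078), and higher for GPC1 (231 CPM in number 3 against 182 CPM in number 1, 0.35 ± 0.084). GPC6 averaged 52.4 CPM in number 3 and 54.7 CPM in number 1, with no call at -0.06 ± 0.083 (SE, edgeR adjusted p 0.701). In this comparison 13.2% of tested genes were called, 6.42% lower and 6.79% higher. GPC6 in number 3 was near its level in number 1, whereas GPC4 was nearer its level in number 2. Over number 2, number 3 was higher for GPC3 (2.41 ± 0.15), GPC6 (1.17 ± 0.086), SDC2 (1.04 ± 0.080) and GPC4 (0.52 ± 0.099), beside 19.4% of tested genes called and 11.9% called higher. The call for GPC1 between numbers 3 and 1 was lost without PEDOT replicate 1 library 2 (edgeR adjusted p 0.0801), PEDOT replicate 3 (0.180) or PVA replicate 1 (0.0927). It was also lost when each replicate was read from its higher-numbered library (0.108). That for GPC3 was lost without PEDOT replicate 3 (0.0868) or PVA replicate 3 library 1 (0.0542), that for SDC2 without PVA replicate 3 (0.122), and that for GPC4 in numbers 3 over 2 without PVA replicate 3 (0.0659).

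**Figure D4:**
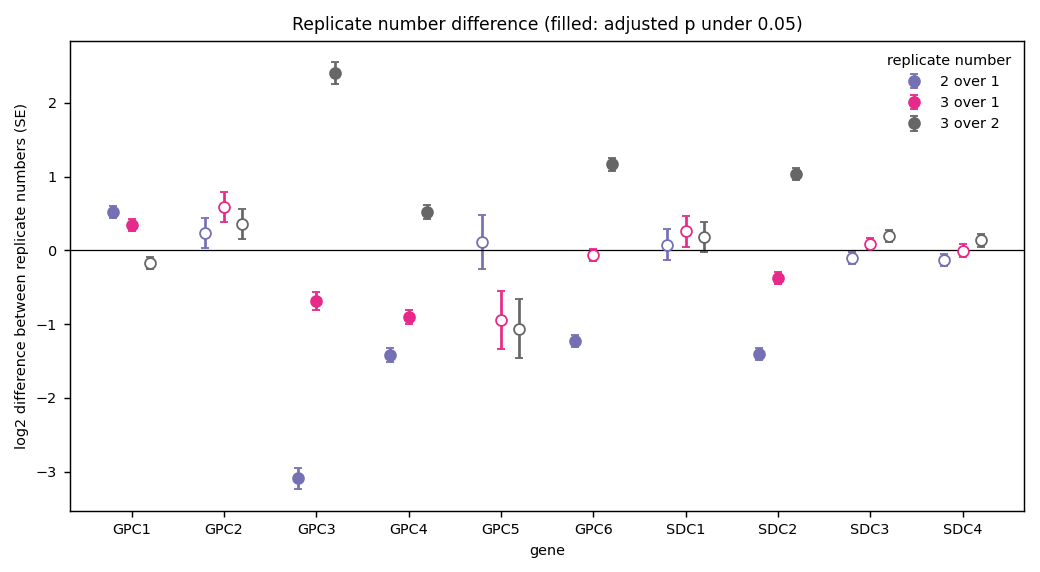
Log2 difference of each gene between replicate numbers (bars SE), with filled points at an adjusted p under 0.05. In number 2 over number 1, GPC3 is lowest at -3.09, followed by GPC4 (-1.42), SDC2 (-1.41) and GPC6 (-1.23), and GPC1 is higher at 0.52.

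**Figure D5:**
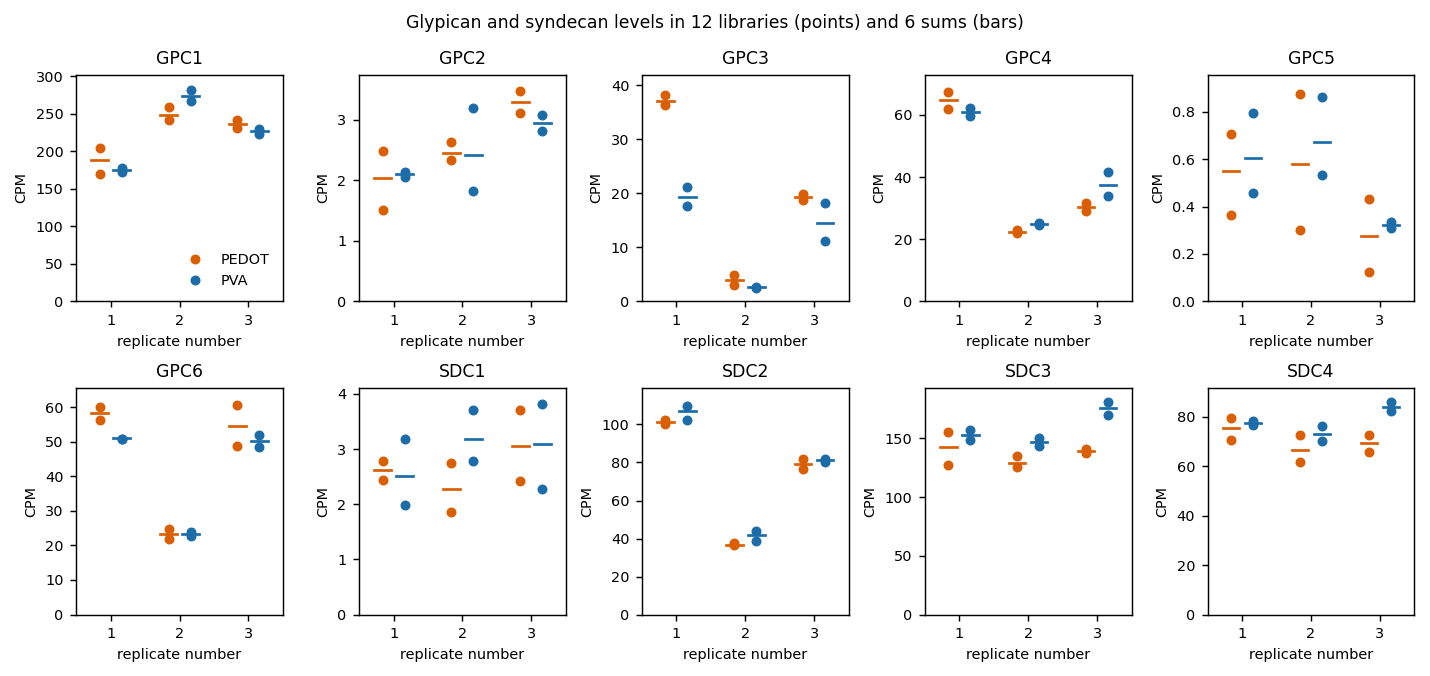
Level of each gene (CPM, linear axes from 0, one scale per panel) in the 12 libraries (points) and the 6 sums (bars) by replicate number, PEDOT orange and left, PVA blue and right. GPC3, GPC4, GPC6 and SDC2 are low in number 2 on both scaffolds, and GPC1 is high there.

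Cell type markers differed between the replicate numbers too. In number 2 over number 1, 7 of the 9 tested fibroblast markers were called lower and 1 higher, with a list median of -2.45 (log2), beside a median of -0.0041 over all genes. All 10 smooth muscle and pericyte markers were called lower (median -0.997), and 8 of 10 cardiomyocyte markers were called higher and 1 lower (median 0.44). Of 10 interferon response genes 9 were called lower (median -2.42). Of 9 tested epicardial and mesothelial markers 6 were lower and 1 higher (median -0.92). Of 5 tested neural markers 4 were lower (median -1.53), and of 5 tested endoderm and epithelium markers 3 were lower and 2 higher (median -2.54). Of 9 tested endothelial markers 2 were lower (median -0.80), and of 10 cell cycle genes 0 were called (median 0.06). COL1A2, a collagen chain on the fibroblast list, fell by 2.58 on the log2 scale in number 2. The part of these lists in the differences of GPC3, GPC4, GPC6, SDC2 and GPC1 was not tested.

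Over the 12 libraries, the genes most like each member in log2 CPM were named by the 3 highest Pearson correlations among genes of 5 CPM or more, as a description. The libraries share replicate numbers and come in technical pairs, so these 12 points are not independent. GPC3 was most like COL5A1 (r = 0.990), COL1A2 (0.990) and SPARC (0.988), all genes of collagenous matrix. SDC2 was most like CD44 (0.993), FUT8 (0.992) and SLC7A2 (0.990). GPC6 was most like THBS2 (0.990), LRIG1 (0.989) and DDR2 (0.989), and GPC4 like AMOTL1 (0.989), TIMP3 (0.987) and AFAP1L2 (0.984). Among the genes most like GPC1 were PRDX2 (0.982) and LAMB2 (0.981). SDC3 and SDC4 had looser nearest genes: LIMD2 (0.905), CSNK1A1 (0.873) and PPIA (0.869) for SDC3, and TUBB2A (0.934), COLGALT1 (0.920) and ITGA3 (0.883) for SDC4. Over the 6 sums in place of the 12 libraries, DDR2 for GPC6 was the 1 gene that stayed among the top 3.

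The rest of the heparan sulfate pathway was read from 10 lists with 139 tested genes. In the scaffold comparison edgeR called 0 of the 139 with or without the block, and DESeq2 and limma-voom called 0 without it and 2 and 1 with it. Over all 21298 genes, DESeq2 called 96 and limma-voom 67 with the block. With the block, edgeR called 9 of 152 pathway genes when every gene with a count was tested, 8 of 139 without pair 3 and 3 of 138 without pair 1. Over all genes, these settings called 389 of 39687, 284 of 21746 and 170 of 21297. Of pathway genes, edgeR called 1 with the lower-numbered technical libraries, beside 16 of 18791 genes, and 1 without PEDOT replicate 2 library 2, beside 63 of 21359. It called 0 pathway genes under the other settings run. At an unadjusted p under 0.05 edgeR had 2 of the 139 without the block and 22 with it. Over all 21298 genes tested it had 190 without the block and 1771 with it. Among the genes that build and sulfate the chains, EXTL3, which starts the chain, had 144, 162 and 147 CPM in PEDOT sums 1, 2 and 3, against 131, 153 and 139 CPM in PVA sums 1, 2 and 3 (paired estimate 0.10 ± 0.062, log2, SE). EXTL1 had 0.26 ± 0.092 (SE; adjusted p by edgeR 0.420), the N-sulfating enzyme NDST1 0.00 ± 0.062 and the sulfate donor transporter SLC35B2 -0.17 ± 0.084 in the same fit. HSPG2, the basement membrane proteoglycan perlecan, had 3025, 3450 and 2928 CPM in PEDOT sums 1, 2 and 3, against 2510, 2774 and 2648 CPM in PVA sums 1, 2 and 3. The 3 PEDOT sums lay above the 3 PVA sums, as in 2.28% of tested genes, and its paired estimate was 0.24 ± 0.075 (SE; adjusted p by edgeR 0.322).

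Of the genes that act with the cores, the ligand VEGFA stood at 0.25 ± 0.080 in the paired fit (log2, SE; adjusted p by edgeR 0.337) and its receptor KDR at -0.42 ± 0.11 (SE; adjusted p by edgeR 0.184). ACTN1, which links syndecan-4 to actin, had -0.30 ± 0.065 (SE; adjusted p by edgeR 0.0970). NFATC1 had -0.25 ± 0.13 and the calcineurin subunit PPP3R1 -0.02 ± 0.070, on the list chosen for syndecan-4. The shedding protease BACE1 had -0.14 ± 0.065, the protease inhibitor TIMP3 -0.16 ± 0.067, CTTN -0.12 ± 0.065, BMPR2 0.01 ± 0.065 and HPSE2 0.08 ± 0.18 in the paired fit, with none called.

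Any difference between the replicate numbers was called for 82 of the 139 tested pathway genes, beside 31.8% of all genes. In number 2 over number 1, 53 were called lower and 19 higher, read beside the 15.7% and 13.3% of all genes. Both polymerising enzymes EXT1 (-0.54 ± 0.088 SE) and EXT2 (-0.28 ± 0.081 SE), and both sulfatases that edit the chains, SULF1 (-1.45 ± 0.11 SE) and SULF2 (-1.58 ± 0.15 SE), fell. EXT1, EXT2 and SULF1, and the proteoglycans CD44, SPOCK1, SPOCK2 and TGFBR3 below, were named after their values were seen. Of 33 tested ligands 18 were lower and 6 higher, and fibronectin (FN1) fell by 2.58 ± 0.15 (SE). Of 26 tested receptors 6 were lower and 5 higher, with BMPR2 at -0.48 ± 0.080 (SE). Of 9 tested chain-starting genes 1 was lower, of 18 modifying genes 6 were lower and 3 higher, and of 13 shedding genes 6 were lower and 1 higher, TIMP3 among the lower at -1.10 ± 0.083 (SE). Of 16 cytoplasmic partners of syndecans 6 were lower and 4 higher, with ACTN1 at -1.004 ± 0.080 (SE), and of 9 calcineurin and NFAT genes 2 were lower. Of the 9 other heparan sulfate proteoglycans 4 were lower, CD44, SPOCK1, SPOCK2 and TGFBR3, while HSPG2 stood at 0.17 ± 0.092 (SE) with no call.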

How the data were processed

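The table deposited by the authors gives, per the file headers, unnormalized counts of paired reads for each gene name, made with featureCounts 2.0.1 (reversely stranded) on GENCODE 33. The Length column, in bases per the file headers, gave CPM per kilobase. The command in the header sets no option for reads with several matches, so these were left out. Tools in the submitters' processing notes are edgeR, DESeq2, featureCounts, STAR and FastQC, with the build hg38; the aligner's version is not given in the sources used here.

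Technical libraries were added to 6 sums. After filterByExpr (minimum count of 10, minimum total of 15), 21298 genes were left and were scaled with TMM. The test was edgeR 4.0.16 in R 4.3.3 (the two-sided quasi-likelihood test, glmQLFTest, with p-values adjusted by Benjamini-Hochberg across all genes and a threshold of 0.05). SEs are log2 differences over the root of F. Alternatives used DESeq2 1.42.0, limma 3.58.1 (voom), other scalings, other filters and left-out libraries. The log2 CPM prior count was 2. The fits were also run on simulated counts, and the outcome of that run is not reported here.

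Correlations across genes used the deviation of each sum from the mean of its scaffold. That centring pushes r between different numbers below 0, so their values (-0.609 to -0.005) are no separate support. Same-numbered sums deviated together (r = 0.679, 0.703 and 0.503), so by a minimum of 0.1 the numbers pair the samples. This comes from the values: no label names a shared culture. Nor does any label say that replicates are separate differentiations, so the p-values cover the spread among these samples, which may be technical.

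All members were named, and from each pathway list the gene of highest mean CPM and that of smallest unadjusted scaffold p. Members and lists were chosen with earlier results of these data known. 1 gene that the rule for likeness names is not reported here.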

Additional observations from a re-analysis of the deposited data

How the results depend on the processing

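Every alternative without the replicate block kept 0 genes called for the scaffold; with the block 57 were called. The replicate number comparison stayed within 1.5 times of 6776 genes throughout, and so did its pathway count, 82 of 139. The paired count was 1 under upper-quartile scaling, 37 with library size only, 389 with every gene with a count, 96 in DESeq2, and 16 and 4 with the lower- and higher-numbered technical libraries. Genes averaging at least 5 CPM gave 1. Among single libraries left out, it was 15 and 4 without PEDOT replicate 1 libraries 2 and 3, 35 without PEDOT replicate 2 library 1, 27 without PEDOT replicate 3 library 1, 22 without PVA replicate 1 library 3, 28 without PVA replicate 2 library 3 and 36 without PVA replicate 3 library 1; the others gave 39 to 73. Without pairs 1, 2 and 3 it was 170, 22 and 284. The paired GPC3 log2 fold change, 0.67 (adjusted p by edgeR 0.0234), lost its call at 0.68 under upper-quartile scaling (adjusted p 0.0853), 0.68 among genes of at least 5 CPM (0.163), 0.82 and 0.55 with the lower- and higher-numbered libraries (0.0699 and 0.296), and 0.48 and 0.69 without pairs 1 and 2. It was 0.65 and 0.68 without PEDOT replicate 1 libraries 2 and 3, 0.59 without PEDOT replicate 2 library 2, 0.66 without PEDOT replicate 3 library 3, 0.71 without PVA replicate 1 library 3 and 0.55 without PVA replicate 3 library 1. The causes were not tested. The replicate block changed no other member's call. Unpaired, GPC2 was -0.26 with the lower-numbered libraries and 0.06 with all. No member share moved by more than 1 SD. GPC2, GPC5 and SDC1 had the fewest counts. Their technical libraries differed by up to 0.78, 1.32 and 0.73 on the log2 scale, and those of GPC3, with more counts, by up to 0.74.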
